A study of Mus musculus with 80 samples.

Results

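The genes described here encode the voltage-gated calcium and sodium channels, the HCN pacemaker channels and the TRPC, TRPM and TRPV cation channels, measured by RNA-seq in mouse AgRP neurons. They were chosen by symbol alone: names beginning Cacna, Cacnb or Cacng, the Scn genes of alpha and beta subunits, Hcn genes and the numbered Trpc, Trpm and Trpv genes. The rule found 64 of the 23337 genes in the table: 26 Cacn genes, 13 Scn genes, 4 Hcn genes and 21 Trp genes. Scn2a1, an older symbol of the alpha subunit gene Scn2a, and Trpa1 are in the table but outside the rule.

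The 80 libraries fall into 20 groups of 2 to 8, all labelled as AgRP+ neurons of the arcuate nucleus of the hypothalamus (ARH). NPY::hrGFP mice, in which green fluorescent protein marks Npy-expressing cells, gave sorted cells from 3 feeding states at 2 times of day. After an effective 24-h fast with 1 h of refeeding there were 4 libraries at ZT14 and 5 at ZT2. After the effective 24-h fast alone there were 8 at ZT14 and 7 at ZT2, and with ad libitum feeding 3 at ZT14 and 6 at ZT2. ZT is the time in hours from lights on. AGRP-Cre;RiboTag mice carry an epitope-tagged ribosomal protein in Cre-expressing cells, so that immunoprecipitation collects their ribosome-bound RNA. They gave 5 fasted libraries at each time, and 4 ad libitum libraries at ZT14 and 3 at ZT2. In the leptin series AGRP-Cre;BMAL1fx mice, whose floxed gene of the clock transcription factor BMAL1 is the target of the AGRP-Cre driver, were set against WT;BMAL1fx mice, which carry the floxed allele without Cre. Both genotypes received leptin or PBS and were collected at ZT14 and ZT2, with 3 libraries in each group and 4 in the PBS-treated controls at ZT2. Another series at ZT5 held 3 libraries of the knockout and 2 of the control, with no treatment given in the labels. The way the cells of the leptin and ZT5 series were collected, and the ages, are not stated in the labels.

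Each voltage-gated calcium channel is built on a pore-forming alpha1 subunit (Cacna1 genes), which sets the type of current, with an alpha2-delta (Cacna2d) and a beta (Cacnb) subunit that govern surface delivery and gating. Most Cacng genes are named for their likeness to a muscle calcium channel subunit but encode TARPs, auxiliary proteins of AMPA-type glutamate receptors. Sodium channels pair an alpha pore (Scn1a and its relatives) with beta subunits (Scn2b and its relatives) that tune gating and act in cell adhesion. HCN channels carry the hyperpolarisation-activated pacemaker current, and TRP channels are mostly calcium-permeable cation channels opened by receptor signalling, heat or ligands. AgRP neurons fire faster in the fasted animal and drive feeding, and these channels are part of the machinery that sets their firing.

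The promoters of Hcn2 and Scn2b, which differed in opposite directions between fasted and ad libitum libraries, are printed as 2 windows that lie far apart in base composition. Other members did not follow that order: the 2 Cacna1d promoters, of a gene that was lower in fasted cells, hold 40.3% and 87.3% GC, and that of Cacng8, which was higher, 50%. Both come from RefSeq, build GRCm38.p6, and span 250 bases before to 50 after a gene start, with each CG dinucleotide in capitals. The Hcn2 promoter (chr10:79716384-79716683, plus strand) is 72.3% G or C and holds 26 CG dinucleotides, a number that 16.9% of all promoters in the table reach. The Scn2b promoter (chr9:45117626-45117925, plus strand) is 38.3% G or C and holds 2, a number that 85.9% of promoters reach.
Hcn2: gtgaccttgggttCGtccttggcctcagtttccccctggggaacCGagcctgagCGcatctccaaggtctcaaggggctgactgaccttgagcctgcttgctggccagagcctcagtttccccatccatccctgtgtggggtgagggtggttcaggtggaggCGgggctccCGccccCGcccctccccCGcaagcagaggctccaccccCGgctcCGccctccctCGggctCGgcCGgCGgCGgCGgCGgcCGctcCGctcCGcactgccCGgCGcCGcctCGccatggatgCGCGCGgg
Scn2b: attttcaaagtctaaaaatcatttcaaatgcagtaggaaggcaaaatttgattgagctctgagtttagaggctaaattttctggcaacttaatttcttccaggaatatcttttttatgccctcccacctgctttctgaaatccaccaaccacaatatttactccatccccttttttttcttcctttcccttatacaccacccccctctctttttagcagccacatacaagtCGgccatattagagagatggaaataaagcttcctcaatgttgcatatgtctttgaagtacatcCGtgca
The 64 promoters found for 50 of the members had a median of 9 CG dinucleotides and 57.3% GC, against 7 and 52.7% over all 32851 promoters, and 14 members had none in the table. The letters describe these windows and say nothing of methylation or of factors bound there, which were not measured.

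Values are the authors' normalised counts, and differences are given on the log2(value + 1) scale with their standard error (SE). Each p is from limma unless another test is named. It was adjusted over every gene in the fit by the Benjamini-Hochberg method, and a gene is called at an adjusted p under 0.05. The labels do not say that replicates were separate mice, so the p-values reflect how these libraries vary, and that variation may be technical. These are bulk samples, in which fewer cells of a type and less RNA per cell cannot be told apart. Recovered reads per library ranged from 5.93 to 34 M, with a median of 14.3 M. Agrp and Npy were at 2910 or more in every library. The summed level of 8 astrocyte markers was 191.8 to 17460 in fasted sorted libraries, with a median of 503.8, against 49.37 to 2331 and 206.6 in the other sorted libraries, so the ranges overlapped. Aqp4, the astrocyte water channel, was over 100 in 5 fasted sorted libraries (replicates 3 and 4 at ZT14 and 1, 3 and 6 at ZT2). RiboTag fasted replicates 3 and 5 at ZT2 had summed values of 42.5 and 22.2 M. In the ZT5 series, Hsd11b2, which separates the genotypes in the leptin series, went against the label in the library labelled control 1 (4628) and the library labelled knockout 3 (11.2). Values of ad libitum sorted replicate 4 at ZT2 were not whole multiples of 1 read. Counts without these 10 libraries were made after the data were seen and stand beside the results they change.

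Of the 64 genes, 48 passed the filter on low values in all 4 experiments (sorted, RiboTag, leptin, ZT5) and 8 in none. Per kilobase of merged exons, the 12 with the highest median level over the 80 libraries were Trpv2 (214.9), Cacng5 (195.8), Scn2b (190.4), Scn9a (150.2), Scn3a (122.7), Scn3b (117.6), Cacnb3 (106.4), Trpc6 (102), Cacnb4 (96.34), Trpc4 (87.78), Cacna2d1 (53.89) and Trpm7 (52.92). They take in the sodium channel pores Scn9a and Scn3a with the beta subunits Scn2b and Scn3b, the TARP relative Cacng5 and the receptor-operated channels Trpc4 and Trpc6. Trpv2 headed the list in the sorted libraries at a median of 204.1 per kb, in the leptin series at 291, and stood at 201.7 in RiboTag, where Cacng5 reached 394.4. Scn9a, the pore best known from pain-sensing neurons, stood at 179.4 per kb in sorted and 193.6 in leptin-series libraries but 68.35 in RiboTag libraries. Among the calcium channel pores, Cacna1e, which carries R-type current, had the highest level in the sorted series at 42.34 per kb, and 6.639 in RiboTag libraries. Scn4a (skeletal muscle), Scn10a (sensory neurons), Trpv1 (the capsaicin receptor), Trpv5 (kidney epithelium), Trpm5 (taste cells) and Cacng6 were at 0 in most libraries.

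**Figure D1:**
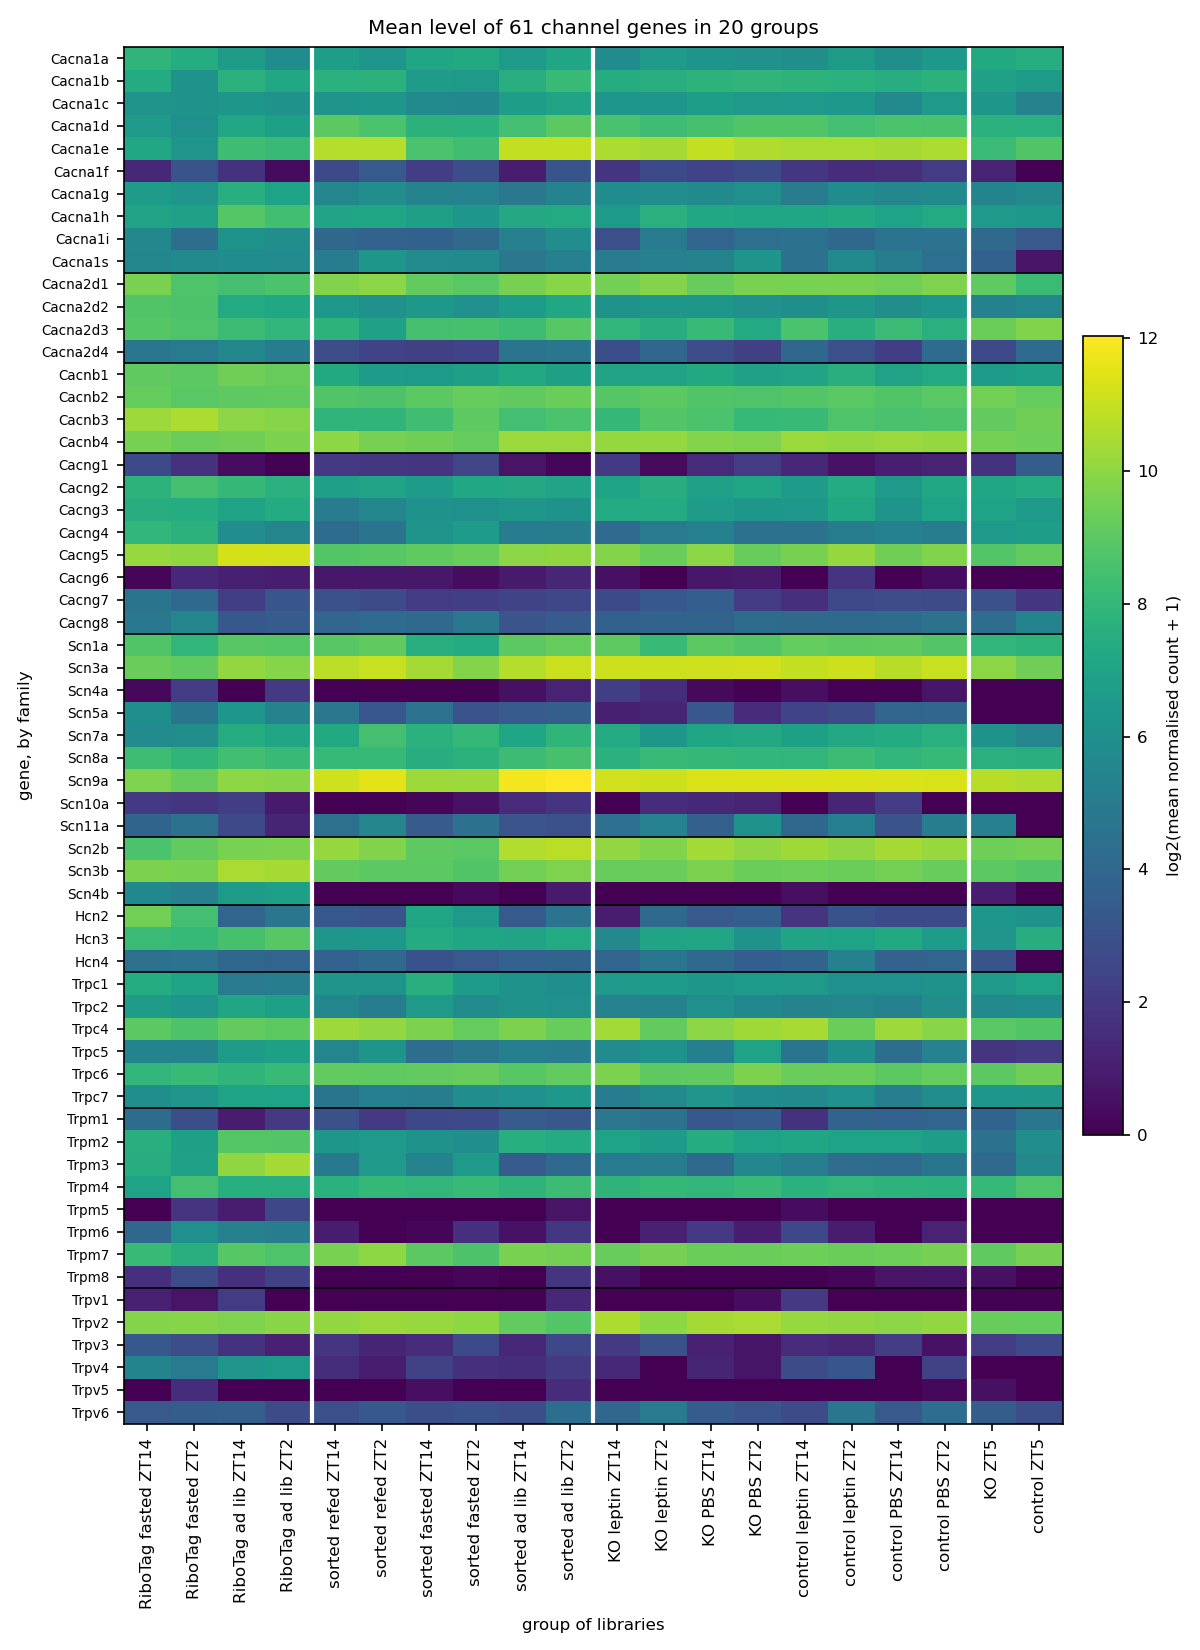
Mean level of 61 of the channel genes (rows, by family) in the 20 groups of libraries (columns), as log2 of the mean normalised count plus 1; black lines separate families and white lines the RiboTag, sorted, leptin and ZT5 libraries. Hcn2 is brighter in the fasted and ZT5 columns than in the others, while Cacna1e and Scn9a are brightest in ad libitum and refed sorted cells and in the leptin series.

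In fasted sorted cells at ZT2, 26 of the 52 channel genes tested were called, 7 higher and 19 lower than in ad libitum cells. That is 50% of them, against 37.5% of all genes tested (18.3% higher and 19.2% lower), and the median difference was -0.67 over the channel genes and -0.02 over all genes. At ZT14, with only 3 ad libitum libraries, 9 of the 52 were called, 3 higher and 6 lower, or 17.3% against a background of 18.5% (9.66% higher and 8.81% lower). The count at ZT14 was 5 without ad libitum replicate 2 and 15 without fasted replicate 5. Without the doubted libraries 18 were called at ZT2, 4 higher and 14 lower, and 11 at ZT14. Of the 8 astrocyte markers, 4 were called higher in fasted cells at ZT14 and 3 at ZT2, and their part in the channel calls was not tested beyond leaving those libraries out.

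The pore genes accounted for most of the lower calls. At ZT2, 6 of 10 Cacna1 genes fell and none rose: Cacna1b (N-type, at synapses), Cacna1c and Cacna1d (L-type), Cacna1e (R-type), Cacna1h and Cacna1i (T-type, opening near rest). Of the 7 alpha subunit genes of sodium channels tested, 4 fell (Scn1a, Scn3a, Scn8a, Scn9a) and none rose. Of the 4 Cacna2d genes 3 fell and of the 4 Cacnb genes 1 fell, Cacnb4. Those that rose lay in other families and included Cacng4 and Cacng8, both TARPs, the pacemaker channel gene Hcn2, Trpm3 and Trpv2. At ZT14 the called genes included Hcn2 and Trpv2, which were higher, and Cacna1e, Cacna2d4, Scn1a, Scn9a, Scn2b and Trpm2, which were lower. All 9 were also called in the same direction at ZT2, in comparisons that share no library but share the fit's estimate of spread.

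Cacna1e had normalised counts of 80.3 to 694 with a median of 404 in fasted cells at ZT14, against 1220, 2119 and 2545 in ad libitum cells. At ZT2 it ranged from 218 to 436 with a median of 311 in fasted cells, against 733 to 3611 with a median of 1843 in ad libitum cells. Every fasted library lay below every ad libitum library at both times. The log2 difference was -2.45 ± 0.41 (SE) at ZT14 (limma, adjusted p = 5.77e-05) and -2.45 ± 0.337 at ZT2 (limma, adjusted p = 7.73e-07). The gene lies on the minus strand at chr1:154390731-154884501 (mm10).

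Scn9a (chr2:66480080-66634962, minus strand) ranged from 430 to 2393 with a median of 1295 in fasted cells at ZT14, against 2369, 4255 and 4322 in ad libitum cells. At ZT2 it ranged from 720 to 1570 with a median of 1362 in fasted cells, against 2921 to 5476 with a median of 4356 in ad libitum cells. The groups were apart at ZT2, and at ZT14 one fasted library lay above the lowest ad libitum library. The differences were -1.70 ± 0.364 (limma, adjusted p = 0.00106) and -1.73 ± 0.299 (limma, adjusted p = 2.39e-05). Scn1a, the pore best known from inhibitory interneurons, lies next to it on the same strand (chr2:66270778-66440840). It ranged from 21.4 to 363 with a median of 171 in fasted cells at ZT14, against 423, 537 and 597 in ad libitum cells. The difference at ZT14 was -1.90 ± 0.523 (limma, adjusted p = 0.00975), with no overlap between the groups. It was no longer called without ad libitum replicate 2 (adjusted p = 0.0558) or 3 (0.0565).

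Scn3a, a pore prominent in the developing brain, ranged from 557 to 1238 with a median of 839 in fasted cells at ZT2, against 1457 to 3063 with a median of 2021 in ad libitum cells. Every fasted library was lower, and the difference was -1.29 ± 0.275 (limma, adjusted p = 0.000338). Cacna1d ranged from 105 to 379 with a median of 198 in fasted cells at ZT2, against 336 to 902 with a median of 480 in ad libitum cells. Its groups overlapped at their edges, and the difference was -1.35 ± 0.241 (limma, adjusted p = 3.67e-05). Trpm2, a calcium-permeable channel opened by ADP-ribose, ranged from 20.9 to 266 with a median of 38.6 in fasted cells at ZT14, against 115, 193 and 273 in ad libitum cells. One fasted library, replicate 5, lay among the ad libitum libraries. The difference was -1.88 ± 0.534 (limma, adjusted p = 0.0123), and it was not called without ad libitum replicate 2 (0.0684) or 3 (0.102), or by the quasi-likelihood test (0.055).

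Scn2b (chr9:45117782-45130070, plus strand), a beta subunit gene whose promoter is printed above, ranged from 326 to 713 with a median of 584 in fasted cells at ZT14, against 1157, 1692 and 1901 in ad libitum cells. At ZT2 it ranged from 304 to 1237 with a median of 394 in fasted cells, against 1063 to 2563 with a median of 1838 in ad libitum cells. One fasted library at ZT2, replicate 2 at 1237, overlapped the ad libitum range. The differences were -1.60 ± 0.357 at ZT14 (limma, adjusted p = 0.00168) and -1.97 ± 0.294 at ZT2 (limma, adjusted p = 2.54e-06). Scn3b, another beta subunit gene, was called lower at ZT2.

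Hcn2 (chr10:79716634-79736108, plus strand) ranged from 39.5 to 349 with a median of 118 in fasted cells at ZT14, against 6.58, 10 and 12 in ad libitum cells. At ZT2 it ranged from 44.9 to 188 with a median of 81.3 in fasted cells, against 6.77 to 38.6 with a median of 23.8 in ad libitum cells. All fasted libraries were above all ad libitum libraries at both times. The differences were 3.48 ± 0.667 (limma, adjusted p = 0.000333) and 1.98 ± 0.548 (limma, adjusted p = 0.0045). Trpv2 ranged from 825 to 1468 with a median of 1148 in fasted cells at ZT14, against 446, 562 and 703 in ad libitum cells, a difference of 1.00 ± 0.318 (limma, adjusted p = 0.0246). At ZT2 it ranged from 631 to 1698 with a median of 983 in fasted cells, against 251 to 604 with a median of 478 in ad libitum cells. The Trpv2 groups did not overlap at either time.

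**Figure D2:**
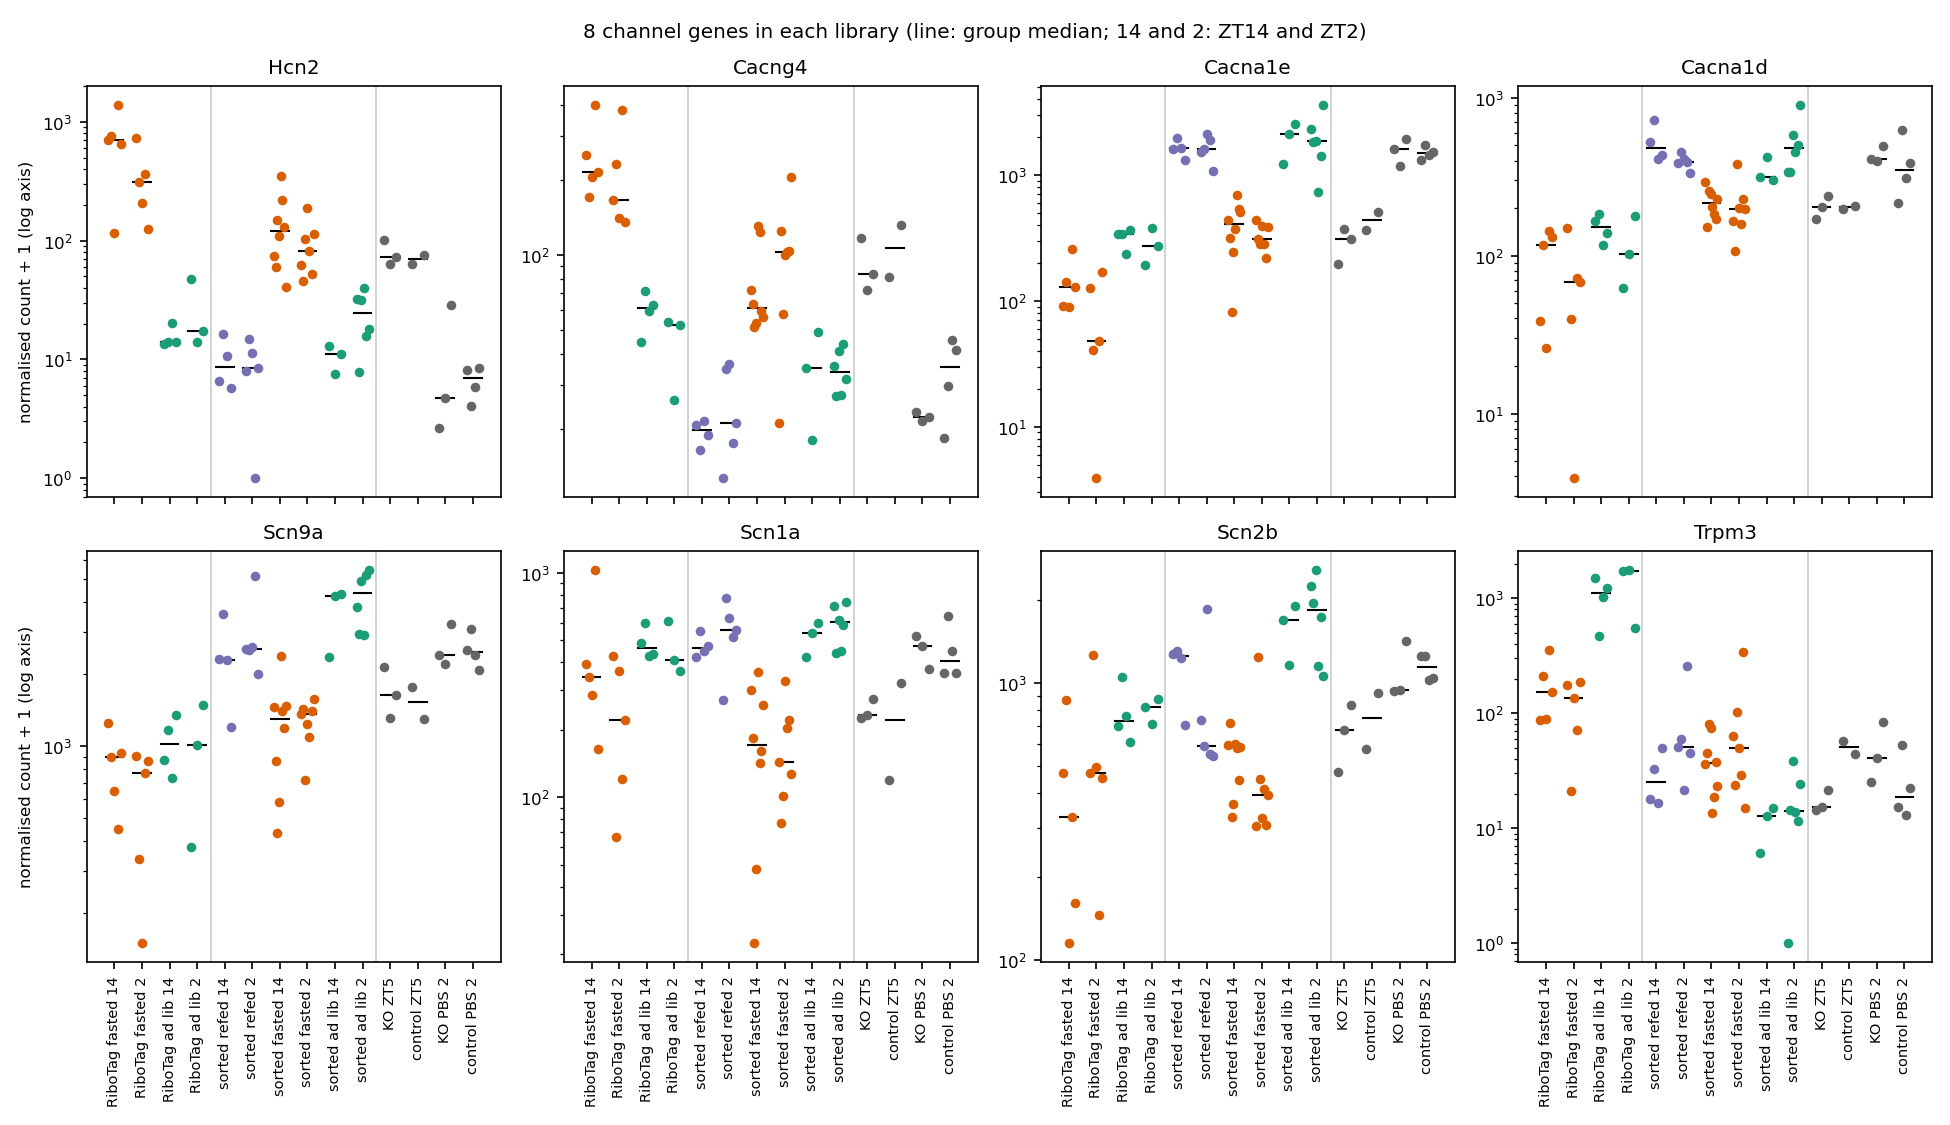
Normalised count plus 1 (log axis) of 8 channel genes in each library, by group, with a line at the group median; orange is fasted, purple refed, green ad libitum and grey the ZT5 and PBS libraries of the 2 BMAL1 genotypes. Hcn2 in fasted sorted cells lies above all ad libitum sorted libraries of the same time, and Cacna1e shows the reverse.

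The channel genes are long, and long genes of all kinds were more often lower than higher in fasted cells. The longest transcript of the tested channel genes had a median of 5757 bases, against 3341 over all genes, and 29 of the 52 lay in the longest quartile of all genes, over 4793.5 bases. Of the 3681 genes in that quartile, 45.4% were lower and 6.28% higher in fasted cells at ZT2, and 21% and 4.46% at ZT14. After each library was adjusted for length and GC content across genes, 7 channel genes were higher and 5 lower at ZT2, and 5 and 7 at ZT14. The median difference of the channel genes at ZT2 was then -0.18. Scn2b (-1.74) and Cacna1e (-0.995) were still called at ZT2 after the adjustment. Scn9a (-0.50, adjusted p = 0.0894), Cacna1d (-0.22, 0.474), Scn3a (-0.08, 0.803), Scn1a (-0.82, 0.0863) and Hcn2 (1.08, 0.0769) were not. Of the other pore genes that fell at ZT2 none was called after it, and Cacna1c (0.05) and Scn8a (0.45) turned positive. At ZT14 Hcn2 (2.72), Cacna1e (-1.50), Scn2b (-1.53) and Scn9a (-0.93) were called after it, and Scn1a (-1.24, adjusted p = 0.0529) and Trpv2 (0.83, 0.0691) were not. Of the 4 tested members with exons of at least 60% GC, 3 were higher and none lower at ZT2 and 2 higher at ZT14, while of the other 48, 4 were higher and 19 lower, and 1 and 6. The part of length and GC content in these differences was not tested beyond the adjustment. The share of all genes called after the adjustment was not counted. Adjusted counts, here and below, thus have no background beside them.

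**Figure D3:**
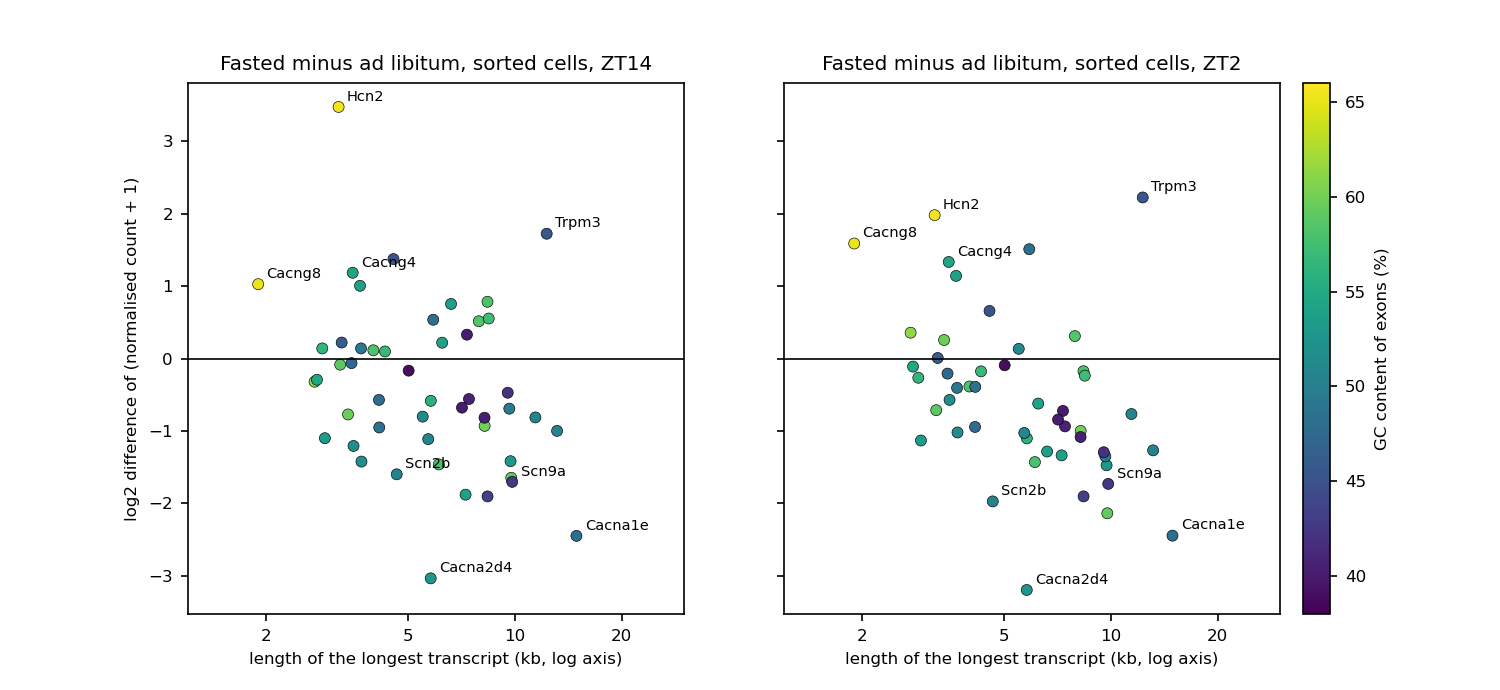
Log2 difference of fasted minus ad libitum sorted cells (vertical axis) against the length of the longest transcript in kilobases (log axis) for 49 of the channel genes tested, at ZT14 on the left and ZT2 on the right, coloured by the GC content of the exons. Hcn2, of high GC, stands near the top, and the long Cacna1e stands at the lower right at -2.45 in both panels.

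Hcn2 was high in the ZT5 series as well as in the fasted libraries. Over the 30 fasted and ZT5 libraries Hcn2 ranged from 39.48 to 1392 with a median of 113.8, against 0 to 46.27 with a median of 7.32 in the other 50, and the sets overlapped. In the ZT5 series, whose labels give no fast, Hcn2 was 62.7, 72.1 and 100 in libraries labelled knockout and 62.7 and 74.8 in those labelled control. Cacna1e was 195, 306 and 373 in libraries labelled knockout and 362 and 510 in those labelled control, which overlaps the fasted sorted range. Against the PBS-treated controls at ZT2, the ZT5 controls differed by 3.45 in Hcn2, 1.70 in Cacng4, -1.80 in Cacna1e and -1.70 in Scn3a, without a test, since series and time differ together. With control 2 alone these values were 3.58, 2.05, -1.55 and -2.31. Of 14001 genes that reached 10 in 20 or more libraries, 0.671% were higher in every fasted and ZT5 library than in any of the others. Among them Cebpb was 42.5 to 1565 in the fasted and ZT5 libraries against 0 to 17.1 in the others, and Alyref 545 to 2756 against 12.3 to 81.8. The ribosomal RNA transcript Rn45s was 1577 to 148400 in the fasted and ZT5 libraries and 50800 to 963300 in the others. What set these libraries apart was not tested, and in the sorted and RiboTag series it cannot be told apart from the fast.

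Refed cells were compared with fasted cells at each time. At ZT2, 7 channel genes were higher and 8 lower in refed than in fasted sorted cells, or 28.8% of those tested against 21.8% of all genes (10.8% higher and 11.1% lower). At ZT14, 5 were higher and 3 lower, 15.4% against 11.7% (6.36% and 5.3%). These comparisons share the fasted libraries with those above, so the opposite sign of a gene in both is not independent. Among the pores, Cacna1d, Cacna1e, Scn1a and Scn9a were higher at both times and Scn3a at ZT2, while Cacna1a was lower at ZT2. Hcn2 and Cacng4 were lower at both times. The adjustment for length and GC content changed the split to 3 higher and 8 lower at ZT2 and 1 and 5 at ZT14. Of the pores that were higher, Cacna1e alone was still called after it (1.27 at ZT14 and 1.30 at ZT2), and Hcn2 (-2.84 and -2.21) and Cacng4 (-1.74 and -1.57) were still lower. Refed libraries lay with the ad libitum ones in Alyref, at 23.5 to 47.4 at ZT14 and 25.5 to 81.8 at ZT2. Fasted cells were at 549 to 2000 and 964.5 to 2363. What set the fasted and ZT5 libraries apart thus cannot be told apart from refeeding here, and its part was not tested.

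Hcn2 was 4.7, 5.61, 9.74 and 15.5 in refed cells at ZT14 and 0, 7.01, 7.39, 10.3 and 13.8 at ZT2. These values lay below all fasted libraries, with differences of -3.66 and -3.69. Cacna1e was 1324, 1605, 1639 and 1975 in refed cells at ZT14 and 1068, 1507, 1593, 1898 and 2131 at ZT2, above every fasted library. The differences were 2.24 ± 0.371 (limma, adjusted p = 4.8e-05) and 2.31 ± 0.355 (limma, adjusted p = 8.72e-06). Scn1a was 421, 450, 474 and 548 in refed cells at ZT14, all above the highest fasted library at 363, a difference of 1.78 ± 0.473 (limma, adjusted p = 0.00964), or 1.13 after the adjustment (0.075). Cacna1d was 407, 432, 521 and 722 in refed cells at ZT14 against 151 to 293 with a median of 215 in fasted cells, a difference of 1.26 ± 0.265 (limma, adjusted p = 0.00106), or 0.52 after the adjustment (0.205).

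Cacng4 (chr11:107732357-107794557, minus strand), a TARP that is also a marker of oligodendrocyte precursors, was 15.5, 17.9, 19.6 and 20.4 in refed cells at ZT14, against 50.3 to 130 with a median of 60.4 in fasted cells. The ZT2 values were 11.7, 16.5, 20.1, 33.8 and 35.6 in refed cells, against 20 to 205 with a median of 101 in fasted cells. Refed libraries lay below all fasted ones at ZT14 and overlapped 1 low fasted library at ZT2. The differences were -1.89 ± 0.448 (limma, adjusted p = 0.00352) and -1.92 ± 0.428 (limma, adjusted p = 0.00112). The other 3 precursor markers summed to 0 to 48.18 in fasted sorted libraries, with a median of 1.234, against 0 to 130.6 with a median of 0 in the other sorted libraries. Trpm7, a channel joined to a protein kinase, was 690, 754, 778, 1001 and 1797 in refed cells at ZT2, against 274 to 579 with a median of 390 in fasted cells, a difference of 1.27 ± 0.251 (limma, adjusted p = 0.000298), or 0.64 after the adjustment for length and GC content (0.0304). Scn3a was 1481, 1981, 2094, 2138 and 2799 in refed cells at ZT2 and above all fasted libraries, with a difference of 1.27 ± 0.289 (limma, adjusted p = 0.0014), or 0.43 after the adjustment (0.179). Scn2b was 704, 1232, 1270 and 1305 in refed cells at ZT14, with a difference from fasted cells of 1.10 ± 0.323 (limma, adjusted p = 0.0208). That call was lost without refed replicate 1 (0.0762), 2 (0.0862) or 3 (0.0709) without the doubted libraries (0.0838), and after the adjustment for length and GC content (0.0819).

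Refed cells also differed from ad libitum cells. At ZT2, 2 channel genes were higher and 9 lower, or 21.2% against 17.7% of all genes (9.01% and 8.72%). The count of 11 was 7 without ad libitum replicate 3, 4, 5 or 6, 6 without refed replicate 1 and 5 without refed replicate 4. It was 4 by the quasi-likelihood test and 7 without the doubted libraries. At ZT14 no channel gene was called by limma or the quasi-likelihood test and 2 had an unadjusted p under 0.05, with 0.375% of all genes called by limma. Over all 14931 genes tested, 960 had such an unadjusted p. The refed libraries here are also those compared with fasted cells, and the ad libitum libraries those compared with fasted cells. A gene's differences in comparisons that share libraries are not independent.

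Cacna2d3 (chr14:28904943-29721864, minus strand), one of the alpha2-delta subunits through which calcium channels reach the membrane, had the smallest p. It was 37.1, 78.3, 89, 138 and 244 in refed cells at ZT2, against 416 to 607 with a median of 463 in ad libitum cells. Fasted cells at ZT2 were at 230 to 495 with a median of 394, and the fasted minus ad libitum difference was -0.41 ± 0.282 (limma, adjusted p = 0.267). The differences were -2.28 ± 0.307 against ad libitum (limma, adjusted p = 4.26e-06) and -1.87 ± 0.297 against fasted cells (limma, adjusted p = 1.38e-05). At ZT14 refed cells were at 172, 184, 253 and 282, and the difference of refed cells at ZT14 minus ZT2 was 1.15 ± 0.34 (limma, adjusted p = 0.341). Trpv2 was 585, 916, 1010, 1131 and 2417 in refed cells at ZT2, higher than in ad libitum cells by 1.32 ± 0.285 (limma, adjusted p = 0.0016), with 1 library overlapping. Trpc7, a receptor-operated channel, was 7.01, 22, 35.2, 45.4 and 66.4 in refed cells at ZT2, against 72.4 to 97.1 with a median of 89 in ad libitum cells. Every refed library was lower, with a difference of -1.57 ± 0.444 (limma, adjusted p = 0.0133), which was not called without refed replicate 1 (0.0725) or by the quasi-likelihood test (0.0633). At ZT14 Trpc7 was 15, 21.6, 22.4 and 38.4 in refed cells against 60.5, 69.4 and 74.4 in ad libitum cells, a difference of -1.52 that was not called (adjusted p = 0.44). Scn2b was 544, 554, 591, 733 and 1857 in refed cells at ZT2 with a difference from ad libitum cells of -1.17 ± 0.32 (limma, adjusted p = 0.0105). Scn3b (-0.70, adjusted p = 0.0314) and Cacng3 (-2.18, adjusted p = 0.0386) were called less firmly. The quasi-likelihood test gave an adjusted p of 0.169 for Scn3b, and -0.45 with an adjusted p of 0.743 for Cacng3. The calls were lost under 8 and 12 of 18 alternatives. Cacng3 was 0, 3.5, 12.4, 79.2 and 129 in refed cells at ZT2, a spread wider than the ad libitum range of 27.9 to 113.

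**Figure D4:**
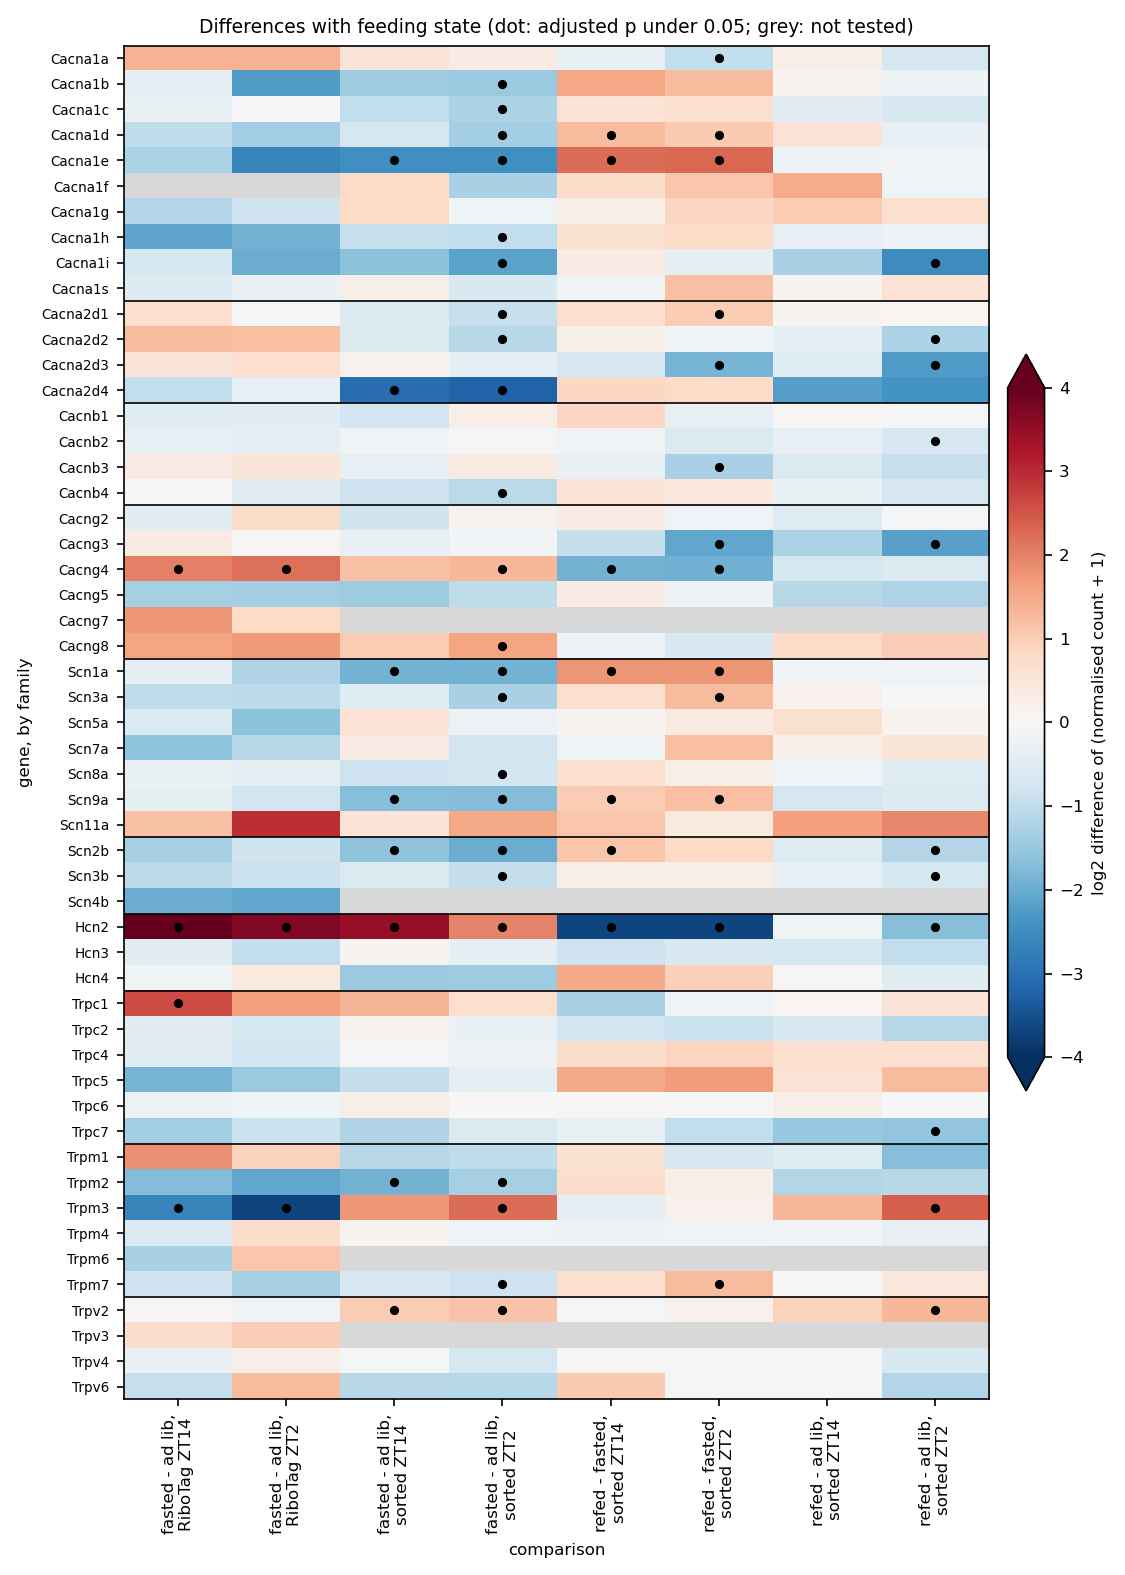
Log2 difference of (normalised count + 1) for channel genes tested (rows, by family) in 8 comparisons of feeding state (columns); a dot marks an adjusted p under 0.05, and grey marks genes that were not tested. Hcn2 is red with a dot in all 4 fasted minus ad libitum columns and blue with a dot in both refed minus fasted columns.

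In RiboTag immunoprecipitates fewer channel genes were called with fasting. At ZT2, 3 of 55 tested genes were higher and 1 lower, or 7.27% against 7.89% of all genes (4.08% higher and 3.81% lower). At ZT14, 4 were higher and 1 lower, 9.09% against 5.29% (4.15% and 1.14%). The count at ZT2 was 10 without fasted replicate 1, and 7 without the doubted libraries. At ZT14 it was 8 without the doubted libraries. Hcn2 and Cacng4 rose at both times and Trpm3 fell at both times.

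Hcn2 was 114, 646, 697, 761 and 1392 in fasted RiboTag libraries at ZT14, against 12.6, 12.9, 13.1 and 19.1 in ad libitum ones. At ZT2 Hcn2 was 125, 206, 311, 364 and 734 in fasted libraries, against 13, 16.5 and 46.3 in ad libitum ones. It rose by 5.20 ± 0.632 at ZT14 (limma, adjusted p = 2.54e-05) and 3.70 ± 0.688 at ZT2 (limma, adjusted p = 0.00293), without overlap.

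Cacng4 was 170, 204, 214, 251 and 400 in fasted RiboTag libraries at ZT14, against 43.7, 58.6, 62 and 70.8 in ad libitum ones, a difference of 2.01 ± 0.392 (limma, adjusted p = 0.00326). The ZT2 values were 135, 139, 165, 231 and 380 in fasted libraries, against 25.2, 51.2 and 52.6 in ad libitum ones, a difference of 2.22 ± 0.427 (limma, adjusted p = 0.00401). Beside it, the other 3 precursor markers summed to 62.64 to 952.5 in fasted RiboTag libraries, against 405.3 to 4257 in ad libitum ones. Trpc1, a widely expressed TRPC subunit, was 90.2, 141, 174, 212 and 260 in fasted libraries at ZT14, against 14.6, 19.2, 29 and 57.3 in ad libitum ones, with no overlap (2.61 ± 0.576, limma, adjusted p = 0.00916). Hcn2 (4.39 at ZT14 and 3.12 at ZT2) and Cacng4 (2.30 and 2.52) were also called after the adjustment for length and GC content. That adjustment gave 10 called channel genes at ZT14 and 8 at ZT2.

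Trpm3 (chr19:22139046-22995410, plus strand), a heat-sensing channel of sensory neurons that is also abundant in the choroid plexus, was the member that fell in both RiboTag comparisons. It was 86.1, 87.7, 152, 210 and 357 in fasted libraries at ZT14, against 466, 1017, 1230 and 1505 in ad libitum ones. The ZT2 values were 20, 70.9, 134, 174 and 185 in fasted libraries, against 554, 1716 and 1772 in ad libitum ones. All fasted libraries were lower, with differences of -2.64 ± 0.619 (limma, adjusted p = 0.014) and -3.69 ± 0.674 (limma, adjusted p = 0.00251). The ZT14 call was lost without ad libitum replicate 1 (0.0615) or 4 (0.0561).
In sorted cells, where Trpm3 was low, it was 14 to 343 with a median of 49.3 in fasted cells at ZT2 and 0 to 37.6 with a median of 13.2 in ad libitum cells, a difference of 2.23 (limma, adjusted p = 0.0114). The RiboTag and sorted differences were themselves unequal, by -4.37 ± 1.12 at ZT14 (limma, adjusted p = 0.0373) and -5.92 ± 1.08 at ZT2 (limma, adjusted p = 0.00138). The ZT14 call was lost under 12 of 27 alternatives, with the replicate block (0.0504) and without any one of 11 libraries, up to an adjusted p of 0.153 without sorted ad libitum replicate 1. A list of 6 choroid plexus genes, chosen after the data were seen, summed to 255.7 to 2007 in fasted RiboTag libraries, with a median of 349.5, against 361.8 to 2285 with a median of 890.2 in ad libitum ones. Of them Kcnj13, a potassium channel gene, was 35.99 to 685.1 in fasted libraries at ZT14 against 65.67 to 918.1 in ad libitum ones, while Ttr, the transthyretin gene, was 3.082 to 23.93 in all ad libitum libraries. Kcnj13 at ZT2, Ttr in fasted libraries and the other genes of the list are not given singly. The part of choroid plexus cells in the fall of Trpm3 was not tested. Cacna2d2 was the other gene whose fasting difference was unequal between the methods at ZT2, by 2.31 ± 0.71 (limma, adjusted p = 0.0396). It was 98.7, 314, 326, 630 and 703 in fasted RiboTag libraries at ZT2 against 119, 161 and 166 in ad libitum ones, but 42.6 to 92.3 in fasted sorted cells against 71 to 210 in ad libitum sorted cells. That call was lost under 13 of 28 alternatives.
The unequal fasting differences make up 1.75% of the 57 channel genes tested at ZT14, against 1.03% of all genes (0.727% higher and 0.308% lower), and 3.51% at ZT2, against 6.72% (3.61% and 3.11%).

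RiboTag and sorted libraries differed in many channel genes with ad libitum feeding. At ZT2, 11 of 57 were higher and 9 lower in RiboTag, or 35.1% against 41.5% of all genes (27.4% higher and 14.2% lower). At ZT14, 10 were higher and 3 lower, 22.8% against 36.3% (25.1% and 11.3%). The medians of the channel genes were 0.57 at ZT14 and 0.10 at ZT2, against 0.34 and 0.29 over all genes. TMM scaling moved the median of all genes by -0.11 at ZT14 and -0.09 at ZT2 and turned no called channel gene round. With it the split was 8 higher and 4 lower at ZT14 and 10 and 13 at ZT2. After the adjustment for length and GC content it was 3 and 13, and 2 and 14. The count at ZT14 was 7 without sorted replicate 1, and that at ZT2 was 11 without RiboTag replicate 1 or 2. Without the doubted libraries 18 were called at ZT14 and 22 at ZT2.

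Cacna1e and Scn9a were among the genes lower in RiboTag at both times. Cacna1e was 234, 337, 340 and 363 in RiboTag at ZT14 and 192, 274 and 380 at ZT2, below all the ad libitum sorted libraries given above (-2.57 ± 0.647 and -2.69 ± 0.599; limma, adjusted p = 0.00181 and 0.000381). Scn9a was 735, 873, 1163 and 1352 in RiboTag at ZT14 and 375, 1011 and 1486 at ZT2, likewise below all sorted libraries (-1.81 ± 0.488 and -2.30 ± 0.452; limma, adjusted p = 0.00336 and 7.88e-05). Cacna1d was 61.4, 102 and 178 in RiboTag at ZT2, all below the sorted libraries, with a difference of -2.23 ± 0.567 (limma, adjusted p = 0.00159).

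Higher in RiboTag at both times were Trpm3, Cacnb1, Cacnb3, Cacna1g, Hcn3 and Trpv4. Scn4b and Trpm6 passed the filter on low values through RiboTag libraries alone, so their calls as higher, included in the counts above, follow from the filter and are not a test. The same holds for Cacna1f, called lower at ZT2, which passed through sorted libraries alone. Trpm3 was 466 to 1505 in the 4 RiboTag libraries at ZT14, against 5.13, 11.8 and 13.9 in sorted cells, and the differences were 6.52 ± 0.9 at ZT14 (limma, adjusted p = 3.91e-07) and 6.71 ± 0.833 at ZT2 (limma, adjusted p = 3.27e-08). Scn4b (chr9:45138395-45154152, plus strand), the neighbour of Scn2b, was 71.5, 73.7, 98.5 and 129 in RiboTag at ZT14 and 0 in all 3 sorted libraries. Its RiboTag mean of 93.28 was at least 31.7-fold higher than a floor of 3 counts per library (2.942). That fold is a description and not a test, given the filter that admitted Scn4b. At ZT2 it was 45.8, 110 and 174 in RiboTag, against 0 to 4.82 with a median of 0 in sorted cells. Cacnb1, the beta subunit first known from skeletal muscle, was 606, 618, 779 and 795 in RiboTag at ZT14 against 107, 109 and 265 in sorted cells (2.24 ± 0.527, limma, adjusted p = 0.00092). The ZT2 values were 515, 629 and 675 in RiboTag against 27.3 to 177 with a median of 132 in sorted cells. The T-type pore Cacna1g was 150, 172, 188 and 246 in RiboTag at ZT14 against 12, 18.5 and 47.4 in sorted cells (3.02 ± 0.65, limma, adjusted p = 0.000341). The groups of Trpm3, Cacnb1 and Cacna1g did not overlap at either time.
The adjustment for length and GC content ended most of these calls. Cacnb1 was then at 0.26 at ZT14 (adjusted p = 0.716) and 0.87 at ZT2 (0.126), Cacna1g at 1.2 (0.129) and 0.54 (0.492), and Trpv4 at 2.20 (0.142) and 1.39 (0.333). Hcn3 turned to -0.53 and -0.33, Cacnb3 to -0.26 and -0.39, and Trpv2, 1.12 higher at ZT2 as measured, to -0.40. Cacnb3 was 1.48 higher at ZT14 as measured. Trpm3 was still called at both times (6.29 and 6.99).
Markers of other cell types were higher in the same RiboTag libraries. All 8 astrocyte, 6 of 6 oligodendrocyte, 6 of 6 microglial, 5 of 6 endothelial and 3 of 4 precursor genes were called higher at both times. The 6 microglial genes together summed to only 1.315 to 11.11 in ad libitum sorted cells at ZT14 and 6.99 to 24.65 at ZT2. Where a marker passed the filter on low values through RiboTag libraries alone, its call follows from the filter and is not a test. The astrocyte sum was 16790 to 58810 in RiboTag at ZT14 and 12300 to 97170 at ZT2, against 49.37 to 67.54 and 56.47 to 520.2 in sorted cells. Trpv4, an osmosensitive channel that astrocytes and vessels also express, and Trpm3 moved with them, and the part of those cells was not tested. The sum of 8 AgRP neuron markers was lower in RiboTag, at 78150 to 102500 at ZT14 and 31820 to 144400 at ZT2. In sorted cells it was 200900 to 452100 and 196200 to 472000. Its part in the channel genes that were lower in RiboTag was not tested. The mouse line differed with the method, so they cannot be told apart.

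**Figure D5:**
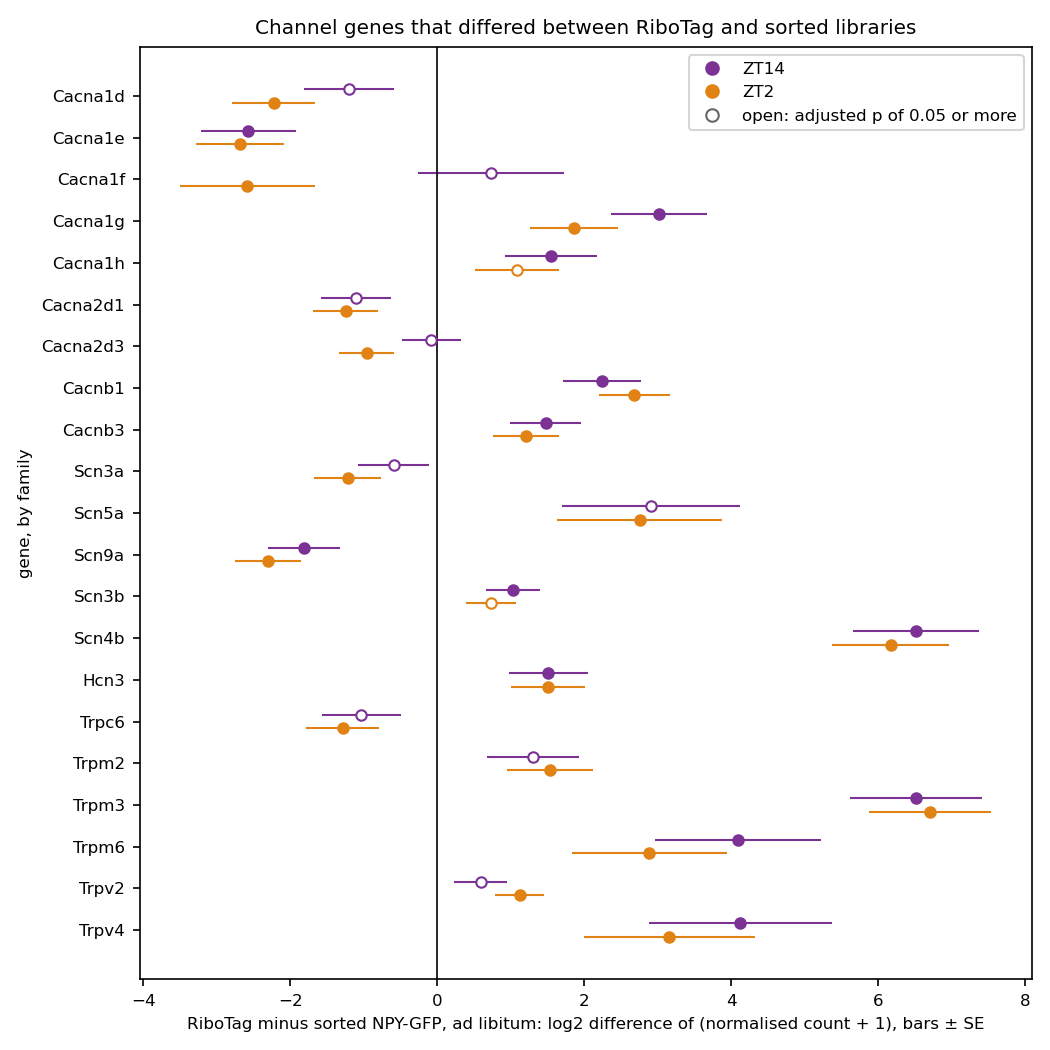
Log2 difference of RiboTag minus sorted NPY-GFP libraries, ad libitum, for channel genes called at either time; points are fitted differences with bars of 1 SE, ZT14 in purple and ZT2 in orange, open where the adjusted p was 0.05 or more. Trpm3 stands over 6 at both times, and Cacna1e stands at -2.57 and -2.69.

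Time of day moved no channel gene past the threshold. In sorted cells, 0 were called by limma or by the quasi-likelihood test between ZT14 and ZT2 in refed, fasted or ad libitum cells, with 1, 5 and 0 at an unadjusted p under 0.05. The shares of all genes called were 0.0268%, 0.281% and 0%. An unadjusted p under 0.05 was found for 1138, 1474 and 413 of all 14931 genes tested, 52 of them channel genes. In RiboTag 0 were called in fasted and in ad libitum libraries by both tests, with 5 and 0 at an unadjusted p under 0.05 and 0% of all genes called. Over all 15444 genes tested there, 55 of them channel genes, 1381 and 92 had such a p. In the PBS libraries of the leptin series 0 were called in knockouts and in controls by both tests, with 5 and 3 at an unadjusted p under 0.05 and 0% and 0.00717% of all genes called. Over all 13942 genes tested there, 52 of them channel genes, 692 and 691 had such a p. Of the differences named by the fixed rule, the largest was that of Cacna1i in fasted RiboTag libraries, at 1.59 (limma, adjusted p = 0.531). Trpc1 differed by 1.13 ± 0.403 in fasted sorted cells at ZT14 minus ZT2 (limma, adjusted p = 0.291) and Trpm4, a channel opened by intracellular calcium, by -1.30 ± 0.387 in fasted RiboTag libraries (limma, adjusted p = 0.531). Hcn3 differed by 0.90 ± 0.299 in PBS knockouts (limma, adjusted p = 0.847) and Cacng2, the TARP stargazin, by -0.73 ± 0.237 in PBS controls (limma, adjusted p = 0.887). The difference of the fasting effect at ZT14 minus ZT2 was not called for any channel gene in sorted or RiboTag libraries by either test. Of all genes, 0% were called there in either series.

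Leptin was compared with PBS in each genotype, with 52 channel genes tested. None was called by limma or by the quasi-likelihood test. At an unadjusted p under 0.05 there were 4 in knockouts at ZT14 and 9 at ZT2, and 1 and 0 in controls. All genes were called in 0.0861% and 0.423% of cases in knockouts and 0% and 0.0215% in controls. An unadjusted p under 0.05 was found for 732 and 1207 of all 13942 genes in knockouts and 384 and 298 in controls. Hcn3, a pacemaker channel gene that partly overlaps Pklr on the opposite strand, was 44.4, 46.9 and 57.2 in leptin-treated knockouts at ZT14, against 96.2, 132 and 191 in PBS-treated knockouts. The groups did not overlap, and the difference was -1.43 ± 0.299 (limma, adjusted p = 0.0709). It was called without PBS replicate 1 (-1.67, limma, adjusted p = 0.0476). That was the only 1 of the 6 libraries whose removal gave a called channel gene. At ZT2 Hcn3 was 104, 134 and 147 in leptin-treated knockouts against 69, 70 and 76.2 in PBS-treated ones, a difference of 0.82 (limma, adjusted p = 0.356). The difference was thus negative at ZT14 and positive at ZT2, neither past the threshold. Trpc4 was 347, 548 and 793 in leptin-treated knockouts at ZT2 against 1072, 1243 and 1549 in PBS-treated ones, without overlap (-1.26 ± 0.342, limma, adjusted p = 0.133). The leptin difference in knockouts minus that in controls was -1.20 ± 0.423 for Hcn3 at ZT14 (limma, adjusted p = 0.999), and 0 channel genes were called in that comparison at either time by both tests, with 2 and 3 at an unadjusted p under 0.05. Over all 13942 genes, 371 at ZT14 and 472 at ZT2 had such a p in that comparison, and 0% were called at either time.

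Knockout and control libraries were compared at ZT2, ZT5 and ZT14. Arntl, which encodes BMAL1 and of which Cre removes part, was 332, 526 and 246 in PBS knockouts at ZT2, against 616, 291, 1125 and 1027 in controls. It was 540, 470 and 491 in libraries labelled knockout at ZT5, against 750 and 390 in those labelled control. At ZT14 PBS knockouts had 395, 230 and 224, against 259, 422 and 298 in controls. With leptin it was 436, 338 and 259 in knockouts at ZT2 against 682, 832 and 1211 in controls, and 262, 108 and 146 at ZT14 against 353, 223 and 277. It was called in none of these (differences of -0.94, -0.12, -0.23, -1.39 and -0.80 in the order given), and counts over the whole gene cannot show whether the floxed part was lost. The comparison at ZT5 includes the 2 libraries whose Hsd11b2 went against the label.

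No channel gene was called between genotypes by limma or the quasi-likelihood test. With PBS, 3 at ZT2 and 2 at ZT14 had an unadjusted p under 0.05, with leptin 1 and 2, and at ZT5 2 of 48 tested. The shares of all genes called were 0.0215% at ZT2 and 0.00717% at ZT14 with PBS, 0.00717% and 0.0215% with leptin, and 0% at ZT5. With PBS an unadjusted p under 0.05 was found for 751 of all 13942 genes tested at ZT2 and 1059 at ZT14. With leptin these were 272 and 658, and at ZT5 it was 1157 of 12940. Hcn3 was 44.4, 46.9 and 57.2 in leptin-treated knockouts at ZT14 against 102, 138 and 154 in leptin-treated controls, apart but not called (-1.38 ± 0.299, limma, adjusted p = 0.259). Scn1a was 254, 264 and 341 in leptin-treated knockouts at ZT2 against 501, 504 and 570 in controls (-0.88 ± 0.292, limma, adjusted p = 1). Cacna1e was 1699, 1742 and 2386 in PBS knockouts at ZT14 against 1147, 1334 and 1685 in controls (0.48 ± 0.212, limma, adjusted p = 0.605). At ZT2 with PBS, Cacnb4 was 687, 810 and 978 in knockouts against 996, 1000, 1256 and 1296 in controls, and the knockouts were all lower. At ZT5 Cacna2d1, the gabapentin-binding subunit, was 380, 587 and 676 in libraries labelled knockout against 144 and 442 in those labelled control (1.07 ± 0.47, limma, adjusted p = 0.553), and the groups overlapped.

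BMAL1, with its partner CLOCK, binds the E-box CACGTG, and 3 of the 64 channel gene promoters (4.69%) hold that motif, which reads the same on both strands, against 2349 of all 32851 promoters (7.15%). The promoter of Trpm7 holds 2 and is shown in full because it is the channel gene promoter with the most of them (GRCm38.p6, chr2:126876212-126876511, minus strand), with the motif in capitals.
Trpm7: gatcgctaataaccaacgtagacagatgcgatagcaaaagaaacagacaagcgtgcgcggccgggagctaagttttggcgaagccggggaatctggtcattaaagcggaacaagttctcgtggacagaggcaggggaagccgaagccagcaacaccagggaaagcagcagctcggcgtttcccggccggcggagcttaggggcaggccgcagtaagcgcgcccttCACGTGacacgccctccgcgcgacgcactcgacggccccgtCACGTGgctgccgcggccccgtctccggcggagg
Trpm7 did not differ past the threshold between genotypes. It was 496, 714 and 718 in PBS knockouts at ZT14 against 485, 650 and 836 in controls, and 587, 621 and 658 at ZT2 against 639, 778, 781 and 833. The differences were -0.02 ± 0.246 (limma, adjusted p = 0.99) and -0.28 ± 0.23 (limma, adjusted p = 0.999). A motif match is not a binding site, and no binding was measured.

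The channels work with partners that anchor, inhibit or assist them, and a list of 44 such genes was followed beside them. Of the 37 tested in sorted cells, 8 were higher and 11 lower in fasted than in ad libitum cells at ZT2, and 8 and 8 at ZT14, or 51.4% and 43.2% against 37.5% and 18.5% of all genes. After the adjustment for length and GC content these were 7 and 7, and 8 and 5. Among those that fell at ZT2 were Ank3, the ankyrin that anchors sodium channels at the axon initial segment (-1.85 ± 0.172, limma, adjusted p = 5.83e-10), the leak channel Nalcn (-1.79) with its subunits Unc79 (-2.02) and Unc80 (-2.26), and the calcium release channels Ryr2 (-3.27) and Itpr1 (-1.37). Among those that rose were Pex5l, which encodes the HCN auxiliary protein TRIP8b (3.28 ± 0.45, limma, adjusted p = 7.18e-07), and Rem2 (2.15) and Rrad (1.54), GTPases that inhibit calcium channels. Cabp1 (2.54), a calcium-binding modulator of calcium channels, and Orai1 (1.97), the store-operated channel, also rose. After the adjustment Itpr1 was not called (-0.23, adjusted p = 0.31), while Ank3 (-0.66), Nalcn (-0.88), Unc79 (-0.98), Unc80 (-0.85) and Ryr2 (-1.81) were still lower by smaller differences. Pex5l (3.01), Rem2 (2.45) and Rrad (1.98) were also higher at ZT14. In refed against fasted cells 8 partners were higher and 3 lower at ZT14, and 7 and 6 at ZT2 (29.7% and 35.1%, against 11.7% and 21.8% of all genes), or 3 and 3, and 4 and 5, after the adjustment. Against ad libitum cells, 0 were called at ZT14 and 3 were higher and 5 lower at ZT2 (21.6% against 17.7%). In RiboTag, fasted libraries had 3 higher and 0 lower at ZT14 and 2 and 5 at ZT2 (8.11% and 18.9%, against 5.29% and 7.89%), or 5 and 0, and 2 and 0, after the adjustment, with Cabp1 (3.84 and 3.28) and Orai1 (2.08 and 1.74) higher at both times. In RiboTag against sorted ad libitum libraries, 9 were higher and 3 lower at ZT14 and 8 and 6 at ZT2 (32.4% and 37.8%, against 36.3% and 41.5%), or 4 and 8, and 4 and 10, after the adjustment. Of the 34 partners tested in the leptin and ZT5 series, the 1 called in any comparison was Stac, an adaptor of L-type calcium channels, lower at ZT14 than at ZT2 in PBS controls (-5.24 ± 0.774, limma, adjusted p = 0.00842). Stac was the only 1 of all 13942 genes called by limma there, and the quasi-likelihood test called 0 genes. Stac2 was lower at ZT14 than at ZT2 in fasted sorted cells (-3.01 ± 0.601, limma, adjusted p = 0.0166), where 42 of all 14931 genes were called.

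Some counts are shared with other genes. Trpc2 shares 97.5% of its exonic length with Xntrpc on the same strand, so its values are uncertain. Cacna1s (20%), Hcn3 (17.1%) and Cacnb4 (16%) share exonic sequence with a gene on the opposite strand, and the strand setting of the counting is not stated.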

How the data were processed

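RNA-seq libraries of mouse AgRP neurons were analysed from the deposited table. Its values are signal: normalised counts, which the authors made by dividing gene counts by a size factor per library. The submitters' processing notes name the aligner STAR 2.5.1 and the counter featureCounts of Subread, the packages DESeq2 and DESeq, R 3.5.1 and the build mm10, without saying in which order. Per the labels' protocols, GFP-positive cells were sorted by FACS, RiboTag RNA was immunoprecipitated, and libraries were made with SMART-seq v4 and Nextera XT.

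In 79 of 80 libraries whole reads could be recovered from the steps between values (tolerance 0.1). Recovered depth was 8.16 to 27.4 M reads in sorted, 11.4 to 23.1 in RiboTag, 5.93 to 34 in leptin and 10.8 to 17.3 in ZT5 libraries.

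The limma-trend method of limma 3.58.1 (R 4.3.3) was applied to each experiment on log2(value + 1), and sorted and RiboTag libraries together for the method. This scale understates differences of low genes. Genes entered a fit if they reached 10 in a number of libraries equal to the size of its smallest group. The Benjamini-Hochberg method was applied across every gene in a comparison, with 0.05 as the threshold. The edgeR 4.0.16 quasi-likelihood test on recovered reads, a pseudocount of 5, no filter, TMM scaling, a replicate block, an adjustment for length and GC content and leaving out each replicate were alternatives. The scripts were tested on simulated data.

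The members and lists were chosen with earlier results of these data known. The rule for named genes picked up to 6 called genes per comparison with the smallest p and a mean log2 of at least 5. Where none was called it picked up to 2. For many of these the values in every library are given, or the range and median in larger groups, but not every gene picked is described. Others are named as members of their family. Results of 3 members are not reported here singly, though the counts hold them. Gene positions, lengths and GC content are from GENCODE M21, matched by symbol (20929 directly, 1917 by an older symbol, 491 not), and promoters from RefSeq.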

Additional observations from a re-analysis of the deposited data

Results flagged for a closer look

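In 58 sets of 1 gene in 1 group of 4 to 8 libraries, a library standing far from the rest was looked for. Chance alone gives such a flag in about 1 set in 20 if values are normally distributed. That condition was not tested for these counts. Scn2b stood apart 3 times: at 1237 in fasted sorted replicate 2 at ZT2, at 704.2 in refed replicate 4 at ZT14 and at 1857 in refed replicate 3 at ZT2. Trpm7 was 1797 in refed sorted replicate 4 at ZT2, the highest of its group. Trpm2 was 266.2 in fasted sorted replicate 5 at ZT14, and Hcn2 was 19.11 in RiboTag ad libitum replicate 3 at ZT14.

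Genes whose fasting difference was unequal between RiboTag and sorted libraries by the interaction test were also marked. Trpm3 differed by -4.37 at ZT14 and -5.92 at ZT2. It was called lower in fasted RiboTag libraries at both times and higher in fasted sorted cells at ZT2. Cacna2d2 differed by 2.31 at ZT2.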

How the results depend on the processing

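Leaving out each replicate in turn gave 5 to 15 called channel genes for fasted minus ad libitum sorted cells at ZT14, 5 to 14 for refed minus ad libitum at ZT2, 4 to 10 for RiboTag fasting at ZT2, 11 to 20 and 7 to 11 for RiboTag minus sorted at ZT2 and ZT14, 1 to 5 and 0 to 1 for the difference between methods in the fasting effect at ZT2 and ZT14, and 0 to 1 for leptin in knockouts at ZT14. The adjustment for length and GC content gave 12 for fasted minus ad libitum sorted cells at ZT2 (26 as reported), 8 and 10 for RiboTag fasting at ZT2 and ZT14 (4 and 5), and 4 and 2 for the method difference in fasting (2 and 1). It turned Trpv2 at ZT2 to -0.396 and Cacnb3 at ZT14 to -0.265 in RiboTag minus sorted; the alternative changes every gene by its length and GC content. The quasi-likelihood test gave 4 for refed minus ad libitum at ZT2 (11) and 8 for RiboTag minus sorted at ZT14 (13). Replicate numbers were shared between groups, but in no comparison did every pair of same-numbered libraries correlate over 0.1. With the replicate block the refed minus ad libitum count at ZT2 was 5 and the method difference in fasting was 1 at ZT2 and 0 at ZT14. Without the doubted libraries the counts were 7 for refed minus ad libitum at ZT2, 7 and 8 for RiboTag fasting at ZT2 and ZT14, and 1 for the method difference in fasting at ZT2. The causes of these shifts were not tested. No other alternative moved a count by over 1.5 times, and no other gene named by the rule changed sign. Genes that reached 10 normalised counts in too few libraries of a fit were not tested in it, and differences in them were not assessed. Some genes that were low in most libraries passed that filter. Among them were Trpm1 and Trpv4, with medians of 5.652 and 0 over the 80 libraries.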
